A study of Mus musculus with 6 samples.

Results

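The SOCS family of mouse holds Cish and Socs1 to Socs7, and its 8 genes were taken by symbol from a count table of 27179 genes. All 8 had a row, and 7 passed the filter on low counts, Socs6 being the exception. The libraries were made from stromal cells of the bone marrow of C57BL/6 mice at postnatal day 2, of the genotype Cxcl12-dsred/+, sorted for the red reporter in the Cxcl12 gene and depleted of blood, erythroid and endothelial cells. Poly(A) RNA was bound by an antibody to N6-methyladenosine (anti-m6A, 2 libraries), bound by IgG as a background control (IgG, 2 libraries), or set aside before the pull-down as 6% of the RNA (Input, 2 libraries). All 6 libraries share the reporter allele, the age and the sort, so they compare fractions of RNA and not genotypes. The labels give neither the number of mice pooled nor a separate culture or animal for each replicate, so every p-value here reflects only how far these libraries scatter, which can be technical.

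SOCS proteins are feedback inhibitors of cytokine signalling. A cytokine receptor activates JAK kinases, these phosphorylate STAT factors, and STAT factors switch on SOCS genes. Each SOCS protein carries an SH2 domain that binds phosphorylated tyrosines of the receptor or the kinase, and a SOCS box that recruits elongins and cullin 5 to mark the bound protein for destruction. Their mRNAs are short-lived, and in mouse T cells those of Socs1, Socs3 and Cish have been reported as m6A targets. In marrow stroma the pathway serves receptors such as those for leptin, leukaemia inhibitory factor, growth hormone and interferon.

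N6-methyladenosine is placed mostly in short motifs of the type GGACT, with a preference for the region around the stop codon. This motif was searched on the sense strand of 1 coding transcript per gene, since mRNA has no second strand. Within 100 bases on either side of the stop codon it was found in Socs2, Socs3 and Cish and not in Socs1, Socs4, Socs5, Socs6 or Socs7. Of 18451 coding genes of the table with a full window of this length, 23.3% hold it. The 21 bases around each of these matches are shown because they are the candidate sites nearest to the stop codon in the 3 genes, and the single match of Socs1 for comparison. The motif is in capitals, and the genome is GRCm38, the assembly that mm10 names, with the minus strand for Socs1, Socs2 and Socs3 and the plus strand for Cish.
Socs3, coding, chr11:117967616-117967636: ggccacctGGACTcctatgag
Cish, coding, chr9:107300829-107300849: gccgacgtGGACTgcctaccc
Cish, 3′ UTR, chr9:107300956-107300976: ccccagctGGACTtggggttc
Socs2, coding, chr10:95412700-95412720: cgatctggGGACTgcctttac
Socs1, 3′ UTR, chr16:10783470-10783490: ccattcctGGACTggagaggt
The A of the motif lay 73 bases before the last base of the stop codon in Socs3, 57 before it in Socs2, 61 before and 66 after it in Cish, and 753 after it in Socs1. The Socs1 match lies in the GENCODE transcript and beyond the end of the gene in RefSeq. A match is a run of letters and not a methylated site, since counts summed per gene do not locate one.

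**Figure D1:**
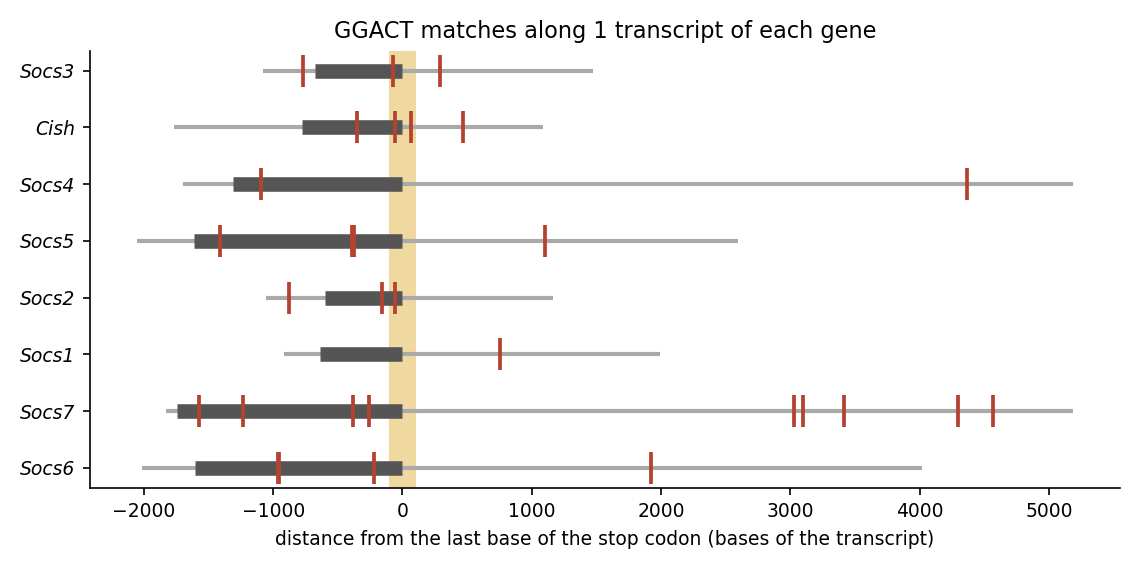
Transcript structure of the 8 genes, with the distance from the last base of the stop codon in bases on the x axis. Thick bars are the coding sequence, thin lines the rest of the transcript, red ticks the A of each GGACT match, and the shaded band the 100 bases on either side of the stop codon, which hold matches in Socs2, Socs3 and Cish.

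Most of the genes are built alike. Socs1, Socs3, Socs4, Socs5 and Socs6 have their coding sequence in 1 exon, Socs2 in 2, Cish in 3 and Socs7 in 9. The longest exon of the transcript ran from 1620 bases in Cish to 6586 in Socs4. Whole transcripts held 1 GGACT match in Socs1, 2 in Socs4, 3 in Socs2 and Socs3, 4 in Cish, Socs5 and Socs6 and 9 in Socs7, against a median of 3 over all coding genes of the table. These counts are not adjusted for length. The median transcript of the table had 2644 bases, beside 6877 in Socs4, 4648 in Socs5, 6036 in Socs6 and 7015 in Socs7. Per kilobase the median over all coding genes was 1.02 matches. The exons of Cish overlap 2 annotated genes, Gm17040 and Gm17041, so without strand its counts cannot be told apart from theirs, while the exons of the other members overlap no other annotated gene.

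Library totals ran from 5133237 to 6102070 counts in anti-m6A, from 1278735 to 2487148 in IgG and from 7125578 to 9493391 in Input. All 10 stroma markers had counts in each anti-m6A and Input library. Of 15 blood markers 3 had counts in each anti-m6A library, 3 in each IgG library, and 5 and 6 in the Input libraries. Spi1, Cd52, Laptm5, Elane, Cd79a and Cd79b were at 0 in all 6 libraries, while Prtn3 reached 221 and 188 counts in anti-m6A, against 382 and 272 in Input, and Vpreb1 136 and 146 in anti-m6A, against 0 and 0 in Input. S100a9 had 184 and 182 counts in anti-m6A, against 52 and 23 in Input. S100a8 had 0 and 0 in anti-m6A, against 213 and 1292 in Input. Input also held Tyrobp with 112 and 58 counts, Lyz2 with 0 and 181, Ctss with 0 and 11 and Coro1a with 1 and 0. Of 11 liver markers 10 had counts in each IgG library, and the list took 0.0913% and 0.0952% of the counts in anti-m6A, 2.52% and 2.69% in IgG, and 0.0166% and 0.217% in Input. Erythroid markers took 0.0832% and 0.0944% in anti-m6A, 0.376% and 0.426% in IgG, and 0.0554% and 0.0767% in Input. Endothelial markers took 0.0152% and 0.0163% in anti-m6A, 0% and 7.82e-05% in IgG, and 0.0285% and 0.0222% in Input. Their Input share was above that of the blood markers, 0.0107% and 0.0194%. Cldn5 alone had 1452 and 1165 counts in Input, while Cdh5, Flt1 and Esam were at 0 there.

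The 8 genes summed to 1263 and 962 counts in anti-m6A, 359 and 94 in IgG, and 3376 and 3757 in Input. Socs2 was the largest contributor in anti-m6A and Input, and Socs3 made up nearly all of the family in IgG. Socs1 took 26.0% (23.6 to 28.6, the exact Clopper-Pearson interval at the 95% level) and 30.0% (27.2 to 33.0) of the family's counts in anti-m6A, against 9.0% (8.06 to 10.0) and 7.99% (7.14 to 8.90) in Input. Socs3 took 5.30% (4.13 to 6.69) and 4.68% (3.43 to 6.21) in anti-m6A, 86.9% (83.0 to 90.2) and 98.9% (94.2 to 99.97) in IgG, and 31.7% (30.1 to 33.3) and 22.9% (21.6 to 24.3) in Input. These shares do not depend on how libraries are scaled. Intervals here cover counting error only, since the amplified reads carry no molecular identifiers.

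**Figure D2:**
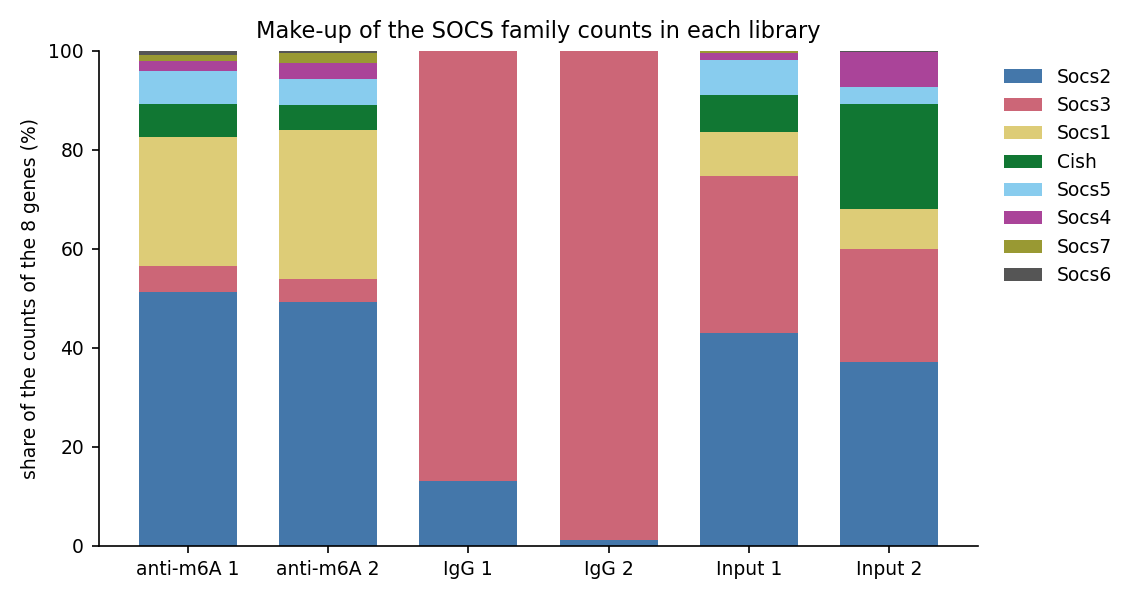
Share of each gene in the summed counts of the 8 genes (y axis, %) for each library (x axis). Socs3 fills 86.9% and 98.9% of the 2 IgG bars against 5.30% and 4.68% of the anti-m6A bars, and Socs1 takes a wider band in anti-m6A than in Input.

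In these bulk libraries fewer cells with a transcript and less of it per cell cannot be told apart. Levels between genes were compared per length, as CPM, the count scaled to library size, per kilobase of transcript. The length is that of 1 GENCODE transcript per gene, and the order can depend on this choice. For Socs2 it was 2222 bases, beside 9531 for all its annotated exons, and for Socs3 2552, beside 2891. For Socs1 it was 2908 bases, beside 1729 for the whole RefSeq gene. In Input the order was Socs2 with 77.2 and 60.8, Socs3 with 49.6 and 32.7, Cish with 10.4 and 27.2, Socs1 with 12.4 and 10.0, Socs5 with 6.14 and 2.78, Socs4 with 0.740 and 3.68, Socs7 with 0.287 and 0.0691, and Socs6 with 0 and 0.0964. Cish and Socs1 overlapped in this order, as did Socs5 with Socs4 and Socs7 with Socs6, while Socs2 stood clear of Socs3. In anti-m6A the order was Socs2 with 60.4 and 53.8, Socs1 with 23.5 and 25.1, Cish with 6.19 and 4.33, Socs3 with 5.45 and 4.45, Socs5 with 3.75 and 2.71, Socs4 with 0.784 and 1.14, Socs7 with 0.414 and 0.719, and Socs6 with 0.378 and 0.167. By these lengths Socs1 stood clear in second place in anti-m6A, and Socs3 overlapped Cish.

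The comparison of anti-m6A with Input asks which transcripts the m6A antibody enriched or depleted relative to the starting RNA. Socs3 was lower, and no other member passed the test. Of the 7 members tested 1 was lower and 0 were higher (edgeR quasi-likelihood test, adjusted p threshold 0.05), against 20.5% lower, 28.0% higher and 48.4% either way among all 11281 genes tested. By the unadjusted p of the edgeR model fitted across all genes, Socs1 was higher (0.0246) and Cish lower (0.0427) past 0.05, and DESeq2 called Socs3 and Cish lower and 0 members higher. The anti-m6A libraries lay above both Input libraries for 2 of 7 members and below both for 3, where 44.3% and 34.4% of all genes tested did so. The median log2 change of the 7 was -0.46, with 0.18 over all genes tested. Scaling moves this comparison: with DESeq2's size factors the median of all genes shifted by -0.44 and with library totals alone by -0.54, and the share of higher genes among the calls was 47.6% and 45.5%, beside 57.8% with the main scaling.

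**Figure D3:**
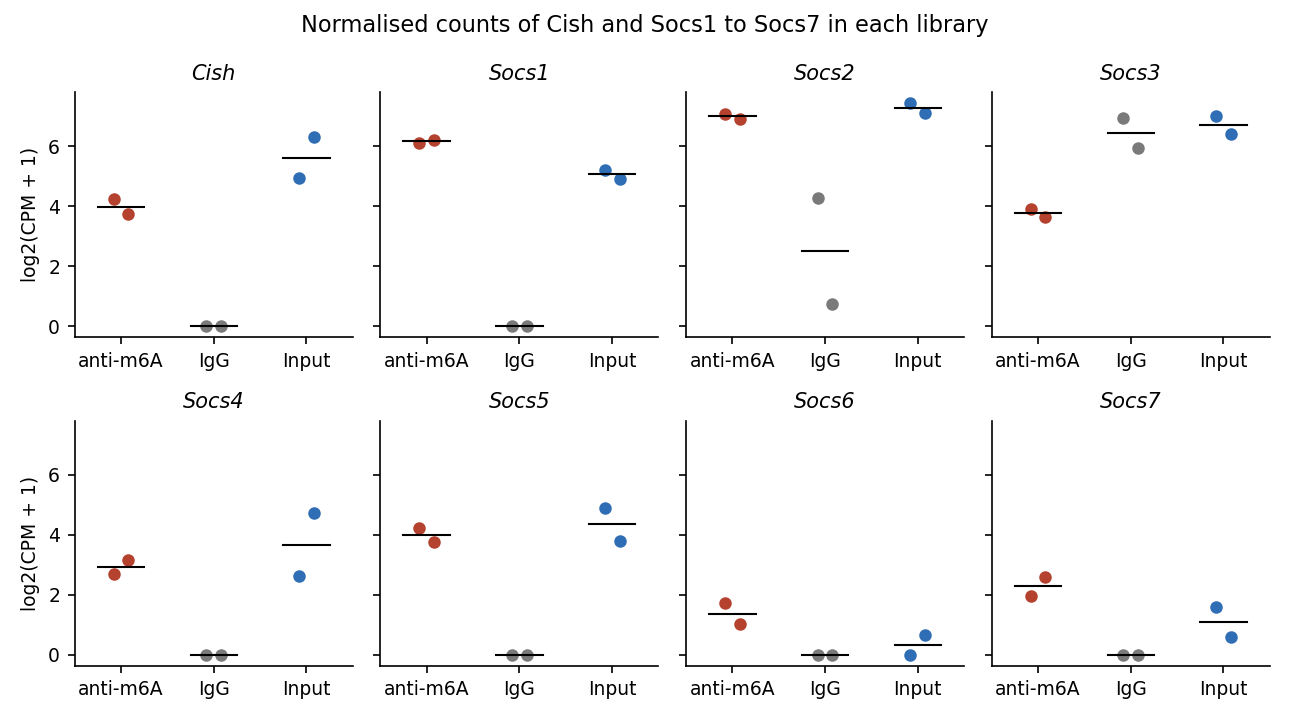
Normalised counts of each gene as log2(CPM + 1) on the y axis, with 1 point per library and a bar at the mean of 2 libraries. Socs3 is low in both anti-m6A libraries and high in IgG and Input, Socs1 is highest in anti-m6A, and 6 of the 8 genes are at 0 in both IgG libraries.

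Socs3 encodes the inhibitor that binds gp130, the shared receptor of the interleukin-6 family, and also the leptin receptor, and blocks JAK1 and JAK2 through a kinase inhibitory region. The gene lies on chromosome 11, 117966079 to 117970336 (RefSeq, GRCm38.p6, as for the genes that follow). It gave 67 and 45 counts in anti-m6A, 312 and 93 in IgG, and 1070 and 860 in Input. On the CPM scale these were 13.9 and 11.3 in anti-m6A, 121 and 60.3 in IgG, and 127 and 83.4 in Input. Both anti-m6A libraries lay below all 4 other libraries, and IgG overlapped Input. Its log2 change was -3.05 ± 0.47 against Input (edgeR adjusted p = 0.00723; SE, n = 2 libraries in each group, as for every log2 change that follows) and -2.84 ± 0.47 against IgG (edgeR adjusted p = 0.00339). In all 12 alternatives it stayed lower than Input and called, with log2 changes from -3.62 to -2.72 and an adjusted p of at most 0.0405. It likewise stayed lower than IgG and called in all 12, from -3.32 to -2.23, with an adjusted p of at most 0.0143. IgG did not differ from Input by the test (log2 change -0.21 ± 0.43, edgeR adjusted p = 0.735). When the fit was limited to the 1757 genes that reached 10 counts in all 6 libraries, where Socs3 is the single member, that change was -1.15 (adjusted p = 0.0382). The liver markers were far above their other levels in the same IgG libraries, and the blood list took 0.00887% and 0.0101% of counts in anti-m6A, 0.268% and 0.208% in IgG and 0.0107% and 0.0194% in Input, from 3 of 15 markers in each IgG library (Mpo, S100a8 and S100a9). Their part in the Socs3 level of IgG was not tested.

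Socs1 encodes the JAK inhibitor best known for ending interferon responses, and lies on chromosome 16, 10783808 to 10785536. It gave 329 and 289 counts in anti-m6A, 0 and 0 in IgG, and 304 and 300 in Input, although the anti-m6A libraries were the shallower. On the CPM scale these were 68.2 and 72.9 in anti-m6A and 36.0 and 29.1 in Input. Both anti-m6A libraries lay above both Input libraries. The log2 change was 1.12 ± 0.32 and just missed the threshold (edgeR adjusted p = 0.0505). The direction was the same in all 11 alternatives, from 0.57 to 1.28. It passed the threshold in 2 of these 11, the fits without Input replicate 1 and without Input replicate 2, each with a lone Input library. All the others missed it. They were DESeq2, DESeq2's size factors, the replicate block, no count filter and the fits without an anti-m6A or an IgG library. With library totals alone it was also missed (log2 change 0.57, edgeR adjusted p = 0.267).

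Ratios of counts within a library need no scaling. For every count of Socs2 there were 0.509 and 0.610 counts of Socs1 in anti-m6A, against 0.210 and 0.215 in Input. For every count of Socs3 there were 4.91 and 6.42 counts of Socs1 in anti-m6A, against 0.284 and 0.349 in Input. In neither of these ratios did the groups overlap, and how often this holds for other pairs of genes was not counted. With 2 libraries against 2, no permutation test of such a ratio can reach 0.05, and none was run. For every count of Socs2 there were 0.131 and 0.103 counts of Cish in anti-m6A, against 0.173 and 0.574 in Input, where the groups did not overlap. Counts of Socs5 for every count of Socs2 were 0.130 and 0.105 in anti-m6A, against 0.166 and 0.0955 in Input, where the groups overlapped. No relation of these ratios to the GGACT matches was tested.

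Socs2 encodes the brake on growth hormone receptor signalling, and its loss gives overgrown mice. The gene lies on chromosome 10, 95383903 to 95417321. It gave 647 and 474 counts in anti-m6A, 47 and 1 in IgG, and 1450 and 1393 in Input. On the CPM scale these were 134 and 119 in anti-m6A, 18.2 and 0.648 in IgG, and 172 and 135 in Input, so anti-m6A sat just below Input and the IgG pair was far apart. The log2 change against Input was -0.27 ± 0.98 (edgeR adjusted p = 0.843), and the SE takes in the spread of the IgG pair because the 3 groups share 1 estimate. It was called in none of the 11 alternatives.

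Cish encodes the first known member of the family, a target of STAT5 that binds receptor tails. It lies on chromosome 9, 107296659 to 107302784. It gave 85 and 49 counts in anti-m6A, 0 and 0 in IgG, and 251 and 799 in Input. On the CPM scale these were 17.6 and 12.4 in anti-m6A, and 29.7 and 77.5 in Input, so that both anti-m6A libraries lay below both Input libraries, with Input replicate 2 far above Input replicate 1. The log2 change was -1.84 ± 0.64 (edgeR adjusted p = 0.0781). It was negative in all 11 alternatives and passed the threshold in 5, among them DESeq2 (adjusted p = 0.00126), library totals alone (0.0380) and DESeq2's size factors (0.0392). The others were the fits without Input replicate 1 (log2 change -2.36) and without Input replicate 2 (-0.98). There the lone Input library is assumed to vary like the other groups, so the spread between the 2 Input libraries of Cish does not enter.

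Socs4 and Socs5 encode larger proteins with long amino-terminal regions, both reported to act on the epidermal growth factor receptor. Socs4 gave 26 and 31 counts in anti-m6A, 0 and 0 in IgG, and 43 and 261 in Input, or 5.39 and 7.82 CPM in anti-m6A and 5.09 and 25.3 CPM in Input. Socs5 gave 84 and 50 counts in anti-m6A, 0 and 0 in IgG, and 241 and 133 in Input, or 17.4 and 12.6 CPM in anti-m6A and 28.5 and 12.9 CPM in Input. In both genes the anti-m6A libraries were close to 1 Input library, and for each gene it was the lower one. The log2 changes against Input were -1.20 ± 0.90 for Socs4 (edgeR adjusted p = 0.336) and -0.46 ± 0.59 for Socs5 (adjusted p = 0.565). Without Input replicate 2 Socs4 turned to 0.36, and without Input replicate 1 it was -1.95. Without Input replicate 1 Socs5 turned to 0.22, and without Input replicate 2 it was -0.92. As for Cish, these fits leave out the spread between the 2 Input libraries. Input replicate 2, where Cish and Socs4 were high, also held the larger share of liver markers, 0.217% against 0.0166%, whose part in these values was not tested.

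Socs6 and Socs7, known for binding insulin receptor substrates, were the scarcest members. Socs7 gave 14 and 20 counts in anti-m6A, 0 and 0 in IgG, and 17 and 5 in Input, and Socs6 had 11 and 4 in anti-m6A, 0 and 0 in IgG, and 0 and 6 in Input. Socs7 had 2.90 and 5.04 CPM in anti-m6A, against 2.01 and 0.485 CPM in Input, and it passed the count filter only with the anti-m6A libraries. Its log2 change was 1.66 ± 0.80 (edgeR adjusted p = 0.161), and it was 2.95 without Input replicate 1 and 0.95 without Input replicate 2. Socs6 could be fitted only without the filter, with a log2 change of 2.37 ± 1.49 (edgeR adjusted p = 0.273), and did not pass the test.

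**Figure D4:**
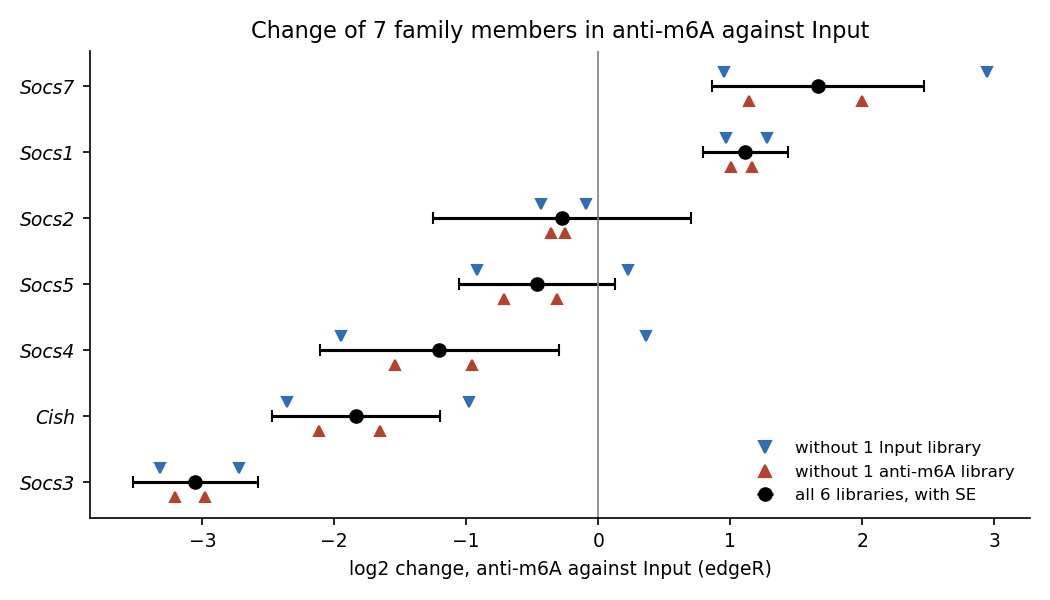
Log2 change of the 7 tested members in anti-m6A against Input (x axis), with black points and SE bars for the fit of all 6 libraries and triangles for fits without 1 library. Socs3 stays near -3 throughout, Socs1 stays near 1, and Socs4 and Socs5 change sign with the Input library left out.

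The comparison of anti-m6A with IgG asks what the m6A antibody recovered beyond background. Of the 7 members tested 6 were higher in anti-m6A and 1, Socs3, was lower, against 73.1% higher, 8.31% lower and 81.4% either way among all genes tested. The same 6 members had both anti-m6A libraries above both IgG libraries and Socs3 had both below, where 82.2% and 10.8% of all genes tested did so. Socs1, Socs4, Socs5, Socs7 and Cish had 0 counts in both IgG libraries, as had 73.4% of all genes tested, and all 5 were also called higher, which held for 64.0% of all genes tested. Socs7 reached the minimum of the count filter in both libraries of a group only in anti-m6A. Its test thus depended on the group where it was then counted as higher. Folds were set against the CPM that 3 counts per library stand for in IgG, a limit that covers counting error only. On the mean of the anti-m6A pair Socs1 was at least 45.4-fold higher, Socs5 and Cish at least 9.67-fold and 9.66-fold, Socs4 at least 4.25-fold and Socs7 at least 2.56-fold. With anti-m6A replicate 1 alone the limits are 44.0-fold for Socs1, 3.47-fold for Socs4 and 1.87-fold for Socs7. With anti-m6A replicate 2 alone they are 8.12-fold for Socs5 and 7.96-fold for Cish. Socs2, with counts in both IgG libraries, had a log2 change of 3.68 ± 1.12 (edgeR adjusted p = 0.0265), which was 7.59 without IgG replicate 1 and 2.80 without IgG replicate 2. The calls of Socs4 (adjusted p = 0.0504) and Socs7 (0.0621) were lost without IgG replicate 1, and that of Socs7 also without anti-m6A replicate 2 (0.0662).

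The comparison of IgG with Input shows what the beads held without the m6A antibody. Of the 7 members 5 were lower in IgG and 0 were higher, against 61.5% lower, 9.89% higher and 71.4% either way among all genes tested. Both IgG libraries lay below both Input libraries for 6 members and above them for 0, where 66.7% and 12.3% of all genes tested did so. Likewise 0 members were higher at an unadjusted p under 0.05 or by DESeq2. Cish was at least 34.5-fold lower in IgG, Socs1 at least 21.0-fold, Socs5 at least 13.3-fold and Socs4 at least 9.79-fold. These limits use the mean of the Input pair and again cover counting error only. With Input replicate 1 alone they are 19.1-fold for Cish and 3.28-fold for Socs4, and with Input replicate 2 alone 8.31-fold for Socs5. Socs2 had a log2 change of -3.95 ± 1.13 (edgeR adjusted p = 0.0241), which was -7.92 without IgG replicate 1 and -3.13 without IgG replicate 2. Socs3 and Socs7 were not called, although DESeq2 called Socs7 lower (adjusted p = 0.0438). These comparisons share libraries, so their values are given side by side and not as separate evidence.

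The genes with the most similar profile were found by the distance between log2(CPM + 1) values over the 6 libraries. For Socs1 they were Sspn (distance 0.199) and Cul5 (0.200). For Socs3 Sec61a2 was the nearest (0.795), for Cish they were Hgsnat (0.328) and Mmp16 (0.388), and for Socs2 Hdlbp (1.08) and Ddb1 (1.27). Sec61a2 shared the shape of Socs3, with 16.8 and 13.9 CPM in anti-m6A, 86.2 and 83.6 in IgG, and 119 and 95.7 in Input. Socs4 lay nearest to Cnot6 (0.445) and Zbtb25 (0.571), Socs5 to Tbc1d19 (0.178) and Nfs1 (0.239), and Socs7 to Zfp970 (0.293) and Ms4a4d (0.413).

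The rest of the pathway was read from lists, in anti-m6A against Input. By the same edgeR test 28.0% of all genes tested were higher, 20.5% lower and 48.4% called either way. The list counts here and in the next paragraph stand beside these shares, and no list was tested as a set. Il6, Ctf1, Epor, Tyk2, Jak3, Bcl6, Pim1 and Ptk2, counted as higher, passed the filter on low counts only through the anti-m6A libraries. Il4ra, Spsb1, Spsb4 and Sh2b3, counted as lower, needed the Input libraries to pass it. Genes scarce in both groups were not tested, so the direction of these genes is tied to the filter. Of 19 ligands 12 were at 0 in all libraries, among them Lif, Osm and Il11, and of the 6 tested 2 were higher and 1 was lower. Ctf1, a ligand of gp130, reached 42 and 28 counts in anti-m6A, against 1 and 0 in Input, and Il34, a ligand of the CSF1 receptor, fell by 1.79 ± 0.50 on the log2 scale. Of 16 receptor chains tested 3 were higher and 2 were lower, a split that moved to 3 and 5 with DESeq2's size factors, 2 and 5 with library totals alone, and 3 and 8 by DESeq2. Ifnar2, a chain of the interferon alpha receptor, rose by a log2 change of 1.48 ± 0.25 and Ghr, the growth hormone receptor on which Socs2 acts, by 1.14 ± 0.20, while Il4ra, a chain of the interleukin 4 receptor, fell by 4.29 ± 0.74. Among 10 JAK and STAT genes tested 4 were higher and 4 were lower. Stat6, the factor of interleukin 4 signalling, fell by 2.36 ± 0.60 on the log2 scale, and the kinase gene Jak3 gave 127 and 108 counts in anti-m6A, against 0 and 5 in Input. Jak2 was chiefly an IgG transcript, with 39 and 40 counts in anti-m6A, 2199 and 1164 in IgG and 50 and 45 in Input, and was lower in anti-m6A than in IgG by a log2 change of -6.46 ± 0.31 (edgeR adjusted p = 0.000548).

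The list of SOCS box partners holds elongins, cullin 5 and other cullin ligase genes, among them Cul2 and Rbx1, which are known from the ligase of the VHL protein. Of the 9 partners tested 5 were higher and 0 were lower, with Elob (elongin B) up by 1.73 ± 0.18, Nedd8, the modifier that activates cullins, by 1.75 ± 0.21, Cul5, the cullin of SOCS proteins, by 1.29 ± 0.33 and Cul2 by 2.55 ± 0.59 on the log2 scale. Cul2, Rbx1 and Elob were also higher in IgG than in Input (log2 changes 3.04, 1.93 and 0.80), and Cul2 and Rbx1 were not called in anti-m6A against IgG (-0.49 and -0.57, edgeR adjusted p of 0.439 and 0.0567). At an unadjusted p under 0.05 there were 5 higher and 1 lower partner genes, by DESeq2 5 higher and 2 lower, and with library totals alone 4 higher and 1 lower. Of 12 other genes with a SOCS box 0 were higher and 6 were lower, while at an unadjusted p under 0.05 there were 1 higher and 6 lower, and by DESeq2 1 higher and 7 lower. The lower ones included the substrate adaptor genes Spsb4 (-5.04 ± 0.71), Spsb1 (-4.01 ± 0.56) and Asb4 (-3.01 ± 0.51). Of 10 genes tested from a list of other inhibitors of the pathway, whose role as such was not tested, 1 was higher and 2 were lower. These were the phosphatase gene Ptpn11 at 2.23 ± 0.31, Dusp1 at -1.44 ± 0.22 and the adaptor gene Sh2b3 at -5.46 ± 0.83. Of 15 genes known to be induced by STAT factors 6 were higher and 4 were lower. The repressor gene Bcl6 reached 257 and 284 counts in anti-m6A, against 0 and 1 in Input, the kinase gene Pim1 rose by 4.24 ± 0.81, and Mcl1, a survival gene, fell by 3.04 ± 0.55. Of 11 signalling proteins reported as bound by SOCS proteins 1 was higher and 3 were lower, namely Igf1r (-2.15 ± 0.42), Grb2 (-1.96 ± 0.36) and Rasa1 (-0.99 ± 0.29), with 0 higher and 5 lower by DESeq2. The list medians of log2 change ran from -1.49 for other SOCS box genes to 1.29 for SOCS box partners, beside 0.18 for all genes tested.

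Of the 23 pathway genes chosen for their change against Input, 18 were no longer called without anti-m6A replicate 1 (edgeR adjusted p from 0.0546 to 0.424) and 17 without anti-m6A replicate 2 (0.0523 to 0.450), where the lone anti-m6A library is assumed to vary like the other groups. Elob, Nedd8, Ptpn11 and Bcl6 were called in both of these fits. With the replicate number as a block 7 of the 23 were not called, and Ghr was not called with library totals alone (log2 change 0.59, adjusted p = 0.0586) or in the fit limited to genes that reached 10 counts in all 6 libraries (0.57, adjusted p = 0.05004). Against IgG the 12 named genes were Jak2, Stat5b, Ifngr1, Lepr, Nedd8, Elob, Ptpn11, Dusp1, Cebpb, Junb, Irs1 and Rasa1, with Jak2, Dusp1 and Rasa1 lower in anti-m6A and the others higher. Lepr, the leptin receptor gene, reached 746 and 589 counts in anti-m6A, against 40 and 17 in IgG, and Ifngr1, a chain of the interferon gamma receptor, had 511 and 368 in anti-m6A and 31 and 6 in IgG. Neither was enriched over Input, where Lepr had 2309 and 2994 counts and Ifngr1 2025 and 2936. Against Input Lepr was called lower (log2 change -0.89, edgeR adjusted p = 0.0329), and Ifngr1 was not called (-1.40, edgeR adjusted p = 0.0615). Without anti-m6A replicate 2 the calls of Ptpn11, Dusp1 and Rasa1 against IgG were lost (adjusted p of 0.0548 for Rasa1, 0.194 for Dusp1 and just above the threshold for Ptpn11), and without replicate 1 that of Dusp1 (0.131).

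**Figure D5:**
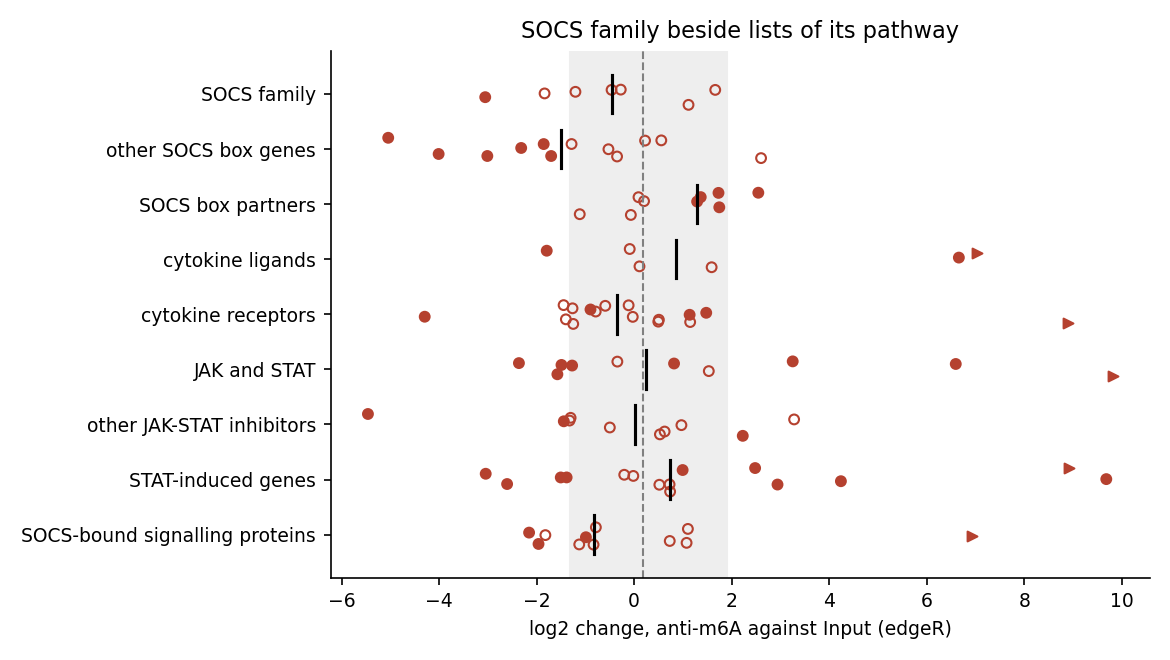
Log2 change in anti-m6A against Input (x axis) for each tested gene of the family and of 8 pathway lists. Filled points passed an adjusted p of 0.05, arrowheads are genes with 0 counts in both Input libraries whose fitted value depends on the prior count, black bars are list medians, and the grey band and dashed line are the quartiles and the median of all genes tested; other SOCS box genes lie mostly to the left and SOCS box partners to the right of 0.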

How the data were processed

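Stromal RNA of 2 anti-m6A, 2 IgG and 2 Input libraries was made into cDNA by Smart-seq2, per the labels' protocols. The authors deposited raw read counts per gene, and featureCounts, Picard, the build mm10 and edgeR 3.38.1 are named in the submitters' processing notes, while the aligner is not given in the sources used here. Library totals ran from 1278735 to 9493391 counts. Of 27179 gene IDs 25275 were matched to a symbol and 1904 were not.

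Counts were tested with edgeR 4.0.16 in R 4.3.3: filterByExpr (minimum count 10, minimum total 15) kept 11281 genes, scaling was by TMM, and quasi-likelihood F-tests on 3 group means (3 residual degrees of freedom) gave 3 contrasts, with Benjamini-Hochberg adjustment over all genes tested and calls at 0.05. The SE is the log2 change divided by the square root of F. The 3 groups share 1 estimate of spread, so it pools pairs that vary unequally. For a gene at 0 counts in a whole group, as Socs1 is in IgG, fewer than these 3 residual degrees of freedom enter the test. CPM used TMM-adjusted library sizes and is given as mean ± SD where averaged. A group at 0 counts was set to 3 counts per library for bounds on folds. The steps were tested on simulated data. DESeq2 1.42.0, other scalings, filters, a replicate block and leaving out each library were alternatives.

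GGACT was searched in 1 GENCODE M21 coding transcript per gene, with a window of 203 bases around the stop codon. The members and lists were chosen with earlier results of these data known. Named genes were all 8 members, from each pathway list up to 3 called genes with the largest change against Input and up to 2 against IgG, with counts in both groups, and the 2 nearest profiles of each tested member. The protein sequences were not analysed here. Of the genes this rule chose, 2 are not reported here.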

Additional observations from a re-analysis of the deposited data

How the results depend on the processing

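These comparisons are limited by 2 libraries per group, reads without molecular identifiers and shallow IgG libraries. In anti-m6A against Input 5464 genes were called, 3364 with the replicate block, 928 in the fit limited to genes that reached 10 counts in all 6 libraries, and 1773 to 8352 when 1 library was left out. The number of members called there was 1, and 2 with DESeq2's size factors, 2 with library totals alone, 2 by DESeq2, and 1 to 5 when 1 library was left out. With the limit of 10 counts, 1179 genes and 1 member were called in anti-m6A against IgG, beside 9187 and 7, and 1051 genes and 1 member in IgG against Input, beside 8057 and 5; Socs3 was the one member left to test. Leaving out 1 library gave 8095 to 9981 genes and 5 to 7 members in anti-m6A against IgG, and 7423 to 8785 genes and 5 to 6 members in IgG against Input.

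The log2 change of Socs3 in IgG against Input turned to 0.14 without IgG replicate 2 and 0.13 without Input replicate 1, and was -0.89 without IgG replicate 1. In anti-m6A against Input, Socs5 turned to 0.22 without Input replicate 1 and was -0.92 without Input replicate 2, and Socs4 turned to 0.36 without Input replicate 2 and was -1.95 without Input replicate 1. The cause was not tested beyond leaving out the library. The replicate block left the number of members called at 1, 7 and 5 in the 3 contrasts. Deviations of same-numbered libraries correlated at 0.127 between anti-m6A and IgG, 0.102 between anti-m6A and Input and 0.0456 between IgG and Input; with 2 numbers per group the libraries share only a number.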
